A study of Mus musculus with 6 samples.

Results

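The secreted growth and repair factors that microglia can supply to injured nervous tissue were examined in RNA-seq libraries of microglia co-cultured with neutrophils. The 10 genes were taken by name from a table of 55335 mouse gene identifiers: Tgfb1, Gdf15 and Inhba of the TGF-beta superfamily, Pdgfa and Pdgfb of the PDGF family, Hbegf, Areg and Ereg of the EGF family, Igf1, and the neurotrophin gene Bdnf. Microglia came from the brains of newborn C57BL/6 mice and carried the wild-type Cd177 gene in every library. They were kept for 24 h with neutrophils sorted from spinal cord lesions 3 days after injury, either from mice with Cd177 (WT neutrophils, the WT arm, 3 libraries) or from Cd177 knockout mice (KO neutrophils, the KO arm, 3 libraries), and were then sorted as Ly6G-negative cells. The comparison asks whether the loss of this neutrophil surface protein changes what the microglia express. The labels give neither a number of donors nor separate cultures for the libraries, so the p-values measure the spread between these 6 libraries, which may be technical, and no library of microglia without neutrophils was among them.

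These genes encode ligands that act on neighbouring cells. TGF-beta superfamily members are made as precursors, are cut by furin-type convertases and mostly signal through paired serine/threonine kinase receptors to SMAD proteins, with GDF15 as an exception. TGF-beta itself is stored in a latent form and is needed by microglia in the adult brain. EGF family ligands are membrane-anchored precursors that metalloproteases such as ADAM17 release and that bind EGFR or its relatives. PDGF chains pair into dimers that act on fibroblasts, pericytes and oligodendrocyte precursors, IGF-1 is a survival factor for neurons and oligodendrocytes, and BDNF acts through the TrkB receptor on neurons. Macrophage-lineage cells are a known source of several of these ligands after injury.

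Values are FPKM (mapped fragments divided by transcript length in kilobases and by the library's fragments in units of 1000000), a unit scaled for transcript length, so levels can be set beside each other between genes. The transcript lengths used are not given, which limits such comparisons. Libraries of one arm were alike (Pearson's r across genes 0.988 to 0.989 within an arm, 0.957 to 0.959 between the arms, with genes that are not independent). The smallest steps between low values corresponded to depths of 15.8 to 19.6 in units of 1000000 fragments per library, but only 23.4% to 27.5% of low values were whole fragments to within 0.05, so this depth is approximate. Cd177 itself was low in the microglia, at 0.477, 0.113 and 0.151 FPKM in the WT arm and 0.109, 0.0217 and 0.0845 FPKM in the KO arm, and gives no firm check of the neutrophil genotype. Of 22 microglia and macrophage markers, 14 had a mean of at least 1 FPKM, led by Lyz2, Cd68 and Ctss in the mean of all 6 libraries. In the WT arm alone Cd14 stood between Lyz2 and Cd68. Their sum was 2271 to 2353 FPKM in WT and 2111 to 2164 FPKM in KO libraries. Of the 14 tested, however, 6 were higher, against 24.5% of all genes tested, and 4 lower, against 18.8%. Among them Cd14 (474 to 136 FPKM), Adgre1 (101 to 39.3 FPKM) and Cx3cr1 (2.74 to 1.14 FPKM) were lower. Trem2 (12.0 to 28.0 FPKM) and Laptm5 (45.4 to 83.0 FPKM) were higher. Of the same list, Sall1 and C1qa were listed at 0 in all 6 libraries and P2ry12 was at or below 0.148 FPKM. Tmem119 (at most 0.79 FPKM), Aif1 (0.28), C1qb (0.22), Mrc1 (0.17) and C1qc (0.097) stayed low too. The cells are called microglia here after the labels, and these low values do not by themselves bear out that name. Of 18 neutrophil markers 8 were listed at 0 throughout, among them Ly6g, S100a9, Elane and Mpo. Their sum was 9.39 to 9.61 FPKM in the WT arm and 1.80 to 2.43 FPKM in the KO arm, mostly from Mmp9, which macrophages also make, and without Mmp9 it was 2.18 to 2.53 and 0.936 to 1.30 FPKM. The sums of the astrocyte (12.3 to 13.3 against 15.7 to 17.2 FPKM, nearly all Aldoc), oligodendrocyte-lineage (2.98 to 3.39 against 4.24 to 4.66 FPKM, mostly Cnp), fibroblast and vascular (at most 0.592 FPKM) and neuron lists (at most 0.680 FPKM) were low as well, and Gja1, Sox10, Col1a2 and Snap25 were listed at 0. The share of mitochondrial genes in the FPKM sum lay between 11.1% and 11.3% in WT libraries and between 14.3% and 14.6% in KO libraries, and the part of these shifts in the results was not tested.

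Of the 10 growth factors, 6 were expressed at a mean of at least 1 FPKM and 4 were not. With KO neutrophils Gdf15, Pdgfb, Pdgfa and Hbegf fell, Igf1 rose, and Tgfb1 did not pass the test. Inhba and Bdnf had no more than a trace, and Areg and Ereg were listed at 0 in every library. Genes were called where the p-value of limma, adjusted across the 11395 genes tested, was under 0.05. By this rule 5 of the 6 tested growth factors were called, against 43.3% of all genes. Lower were 4, against 18.8% of all genes, and higher was 1, against 24.5%. More than 2-fold lower were 2, Gdf15 and Pdgfb, against 2.02% of all genes, and none was more than 2-fold higher, against 0.509%. The median log2 change of the 6 was -0.34, beside 0.02 for all genes tested. When every library was rescaled to the same sum (TPM scale) all 6 were called, 5 of them lower. Over all 11395 genes this fit called 42.4%, 2660 lower and 2175 higher. Among all called genes the share that was lower moved from 43.4% to 55.0%. FPKM sums were 314085 to 315632 in WT and 323588 to 326868 in KO libraries, so this scale lowers all KO values relative to WT. The median log2 change of all genes went from 0.02 to -0.02. RNA was read from bulk cells, so fewer cells expressing a gene and less RNA per cell cannot be told apart.

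**Figure D1:**
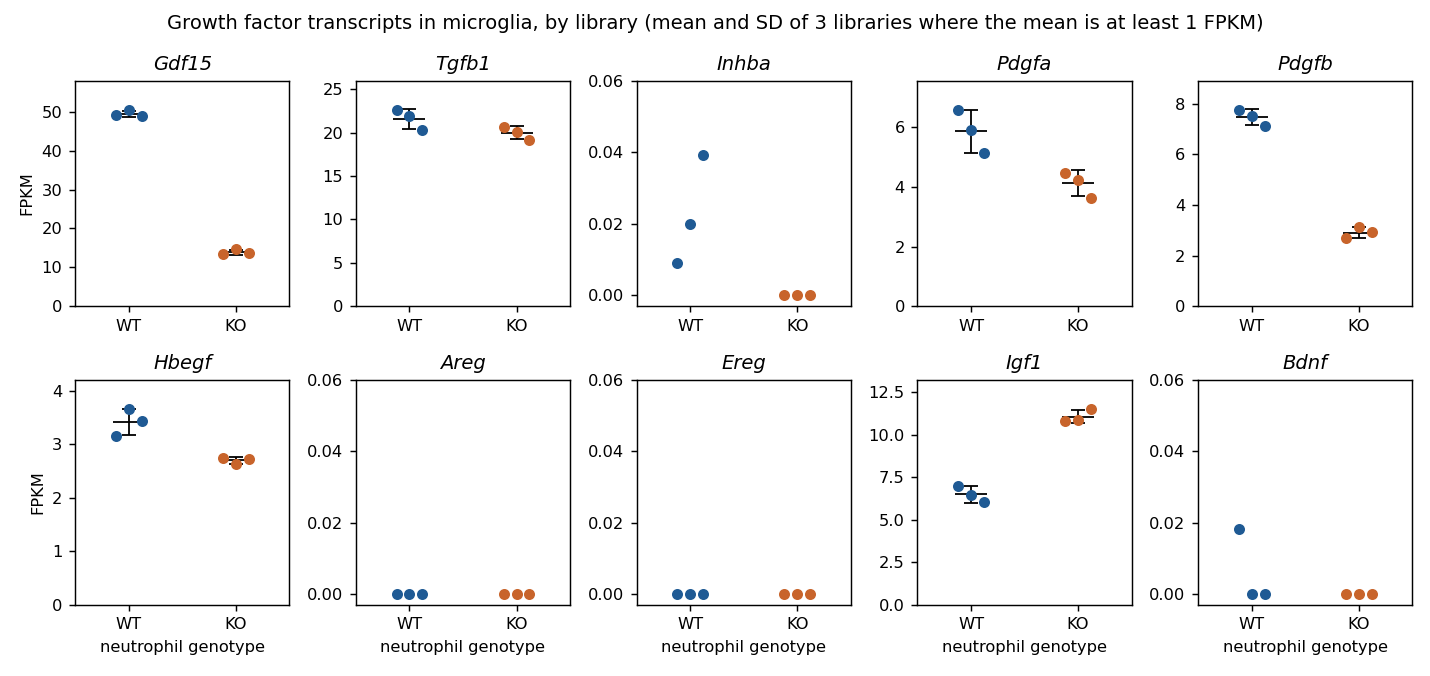
FPKM (linear axis) of the 10 growth factor genes in each library, WT neutrophils in blue and KO neutrophils in orange; horizontal marks and bars are the mean and SD of 3 libraries and are drawn only for the 6 genes whose mean reached 1 FPKM. Gdf15, Pdgfb, Pdgfa and Hbegf have every KO point below every WT point, Igf1 has the reverse, and the 4 panels for Inhba, Areg, Ereg and Bdnf share an axis that ends at 0.06 FPKM.

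Gdf15 showed the largest change of the 10. It encodes a stress-induced member of the TGF-beta superfamily that circulates and acts on the brainstem through GFRAL and its co-receptor, the tyrosine kinase RET. Its level was 49.2, 50.4 and 49.0 FPKM in the WT arm and 13.3, 14.6 and 13.7 FPKM in the KO arm. All WT libraries lay far above all KO libraries, and the spread within an arm was small (49.5 ± 0.763 and 13.9 ± 0.656 FPKM, SD, n = 3 each). The level was 3.56-fold lower with KO neutrophils, or by -1.76 as a difference of log2(FPKM + 1) values (SE 0.038, limma adjusted p = 7.02e-07), which ranked 82 of 11395 genes by size. Exact permutation of the libraries (two-sided) gave p = 0.1, the smallest that 3 against 3 allow. Gdf15 lies on chromosome 8, 70629393 to 70632456 (GRCm38, GENCODE M21, minus strand), and no other annotated exon overlaps it. Its 2 annotated protein-coding transcripts start at different places, and a promoter window is given for both below, because this gene carried the largest fall. The windows are RefSeq sequences of build GRCm38.p6, each with 250 bases before and 50 bases from the start of transcription onward, on the minus strand, and capitals would mark a match to a searched motif.

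Gdf15 upstream start, chr8:70632407-70632706: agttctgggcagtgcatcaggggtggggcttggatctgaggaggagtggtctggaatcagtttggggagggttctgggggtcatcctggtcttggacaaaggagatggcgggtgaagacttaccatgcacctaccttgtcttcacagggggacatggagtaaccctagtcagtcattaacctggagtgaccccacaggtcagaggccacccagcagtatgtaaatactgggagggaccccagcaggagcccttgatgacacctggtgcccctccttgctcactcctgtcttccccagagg
Gdf15 downstream start, chr8:70632046-70632345: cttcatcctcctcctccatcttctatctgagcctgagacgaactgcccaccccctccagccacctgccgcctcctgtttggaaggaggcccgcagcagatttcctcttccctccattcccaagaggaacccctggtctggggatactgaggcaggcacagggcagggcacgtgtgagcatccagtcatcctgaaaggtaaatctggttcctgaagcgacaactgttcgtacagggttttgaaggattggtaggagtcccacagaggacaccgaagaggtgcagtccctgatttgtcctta

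Neither Gdf15 window held a match to any motif searched, so no capitals appear. Searched on both strands were the NF-kB letters GGGANTTTC and GGGANTTCC (held by 1.11% and 1.68% of all 32851 promoter windows of 300 bases), AP-1 TGANTCA (7.81%), the cyclic AMP response element TGACGTCA (1.79%) and its wider form TGACGTNA (2.93%), which contains the former, the C/EBP-ATF letters TGATGCAAT (0.192%) and TGATGNAA (3.97%), which overlap, EGR1 GCGNGGGCG (5.55%), Sp1 GGGCGG (35.7%), which can overlap an EGR1 match, and the TATA box TATAAA (13.6%). A missing match says only that these letters are not in the window. The GC content of the windows was 57.0% and 56.0%, beside a median of 52.7% over all windows. Promoter windows were found for 7 of the 10 growth factors, 15 windows in all.

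Tgfb1, which encodes TGF-beta 1, was the most abundant of the 10 with KO neutrophils and the second with WT neutrophils. It had 22.6, 21.9 and 20.4 FPKM in the WT arm and 20.7, 20.1 and 19.2 FPKM in the KO arm. The arms overlapped, since the lowest WT library lay below the highest KO library. The means of 21.6 ± 1.13 and 20.0 ± 0.776 FPKM (SD, n = 3 each) differed by -0.11 in log2 (SE 0.048, 95% interval -0.22 to 0.01, limma adjusted p = 0.126), and exact permutation (two-sided) gave p = 0.2. The interval leaves room for a small fall but not for one of the size of Gdf15, and on the TPM scale the log2 change of -0.16 passed the threshold (limma adjusted p = 0.0458). The Tgfb1 gene is on chromosome 7, 25687002 to 25705077 (plus strand), and no annotated exon of another gene overlaps it. Its window is shown as the contrast to Gdf15, with matches to the Sp1 and EGR1 letters in capitals.

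Tgfb1, chr7:25686752-25687051: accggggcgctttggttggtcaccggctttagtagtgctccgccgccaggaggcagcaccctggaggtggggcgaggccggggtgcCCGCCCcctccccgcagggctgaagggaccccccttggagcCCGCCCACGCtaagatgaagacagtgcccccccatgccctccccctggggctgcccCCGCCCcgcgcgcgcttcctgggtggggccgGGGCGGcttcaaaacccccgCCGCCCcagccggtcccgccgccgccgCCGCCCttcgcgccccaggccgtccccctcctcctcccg

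The Tgfb1 window had 77.0% GC and 7 matches, 6 to Sp1 and 1 to EGR1, of which 1 Sp1 match overlaps the EGR1 match.

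Inhba encodes the beta A subunit of activin A. It lies on chromosome 13, 16011851 to 16031621. It had 0.00921, 0.0199 and 0.0393 FPKM in the WT arm and 0 in each of the 3 KO libraries. All these values were under the amount that 3 fragments would give for its shorter coding transcript (0.114 to 0.125 FPKM in the WT arm), whereas for its longer transcript of 6390 bases the WT libraries would hold about 1.02, 2.01 and 4.07 fragments. At this depth no fold is given. The exact two-sided permutation p of 0.1 is the smallest possible and reflects only that the KO libraries were at 0. With no filter on low values the limma adjusted p was 0.247.

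The machinery around these ligands was then counted from lists of the same pathway. None of 21 further TGF-beta superfamily ligands reached a mean of 1 FPKM, 11 were listed at 0 in all libraries, and the highest was Gdf11 at 0.605 FPKM. Of 27 genes for latency, activation and inhibition 11 were tested, of which 7 were lower and 2 higher, 81.8% called beside 43.3% of all genes (median log2 change -0.37). Furin, the convertase that cleaves the TGF-beta precursor, fell from 14.0, 13.9 and 13.6 FPKM to 6.35, 6.19 and 6.13 FPKM (log2 change -1.04, SE 0.035, limma adjusted p = 4.51e-06). Tgif1, a transcriptional repressor of SMAD targets, fell from 23.5 to 14.6 FPKM, Smurf1, a ubiquitin ligase of the pathway, from 10.4 to 7.53 FPKM, and Nrros, which tethers latent TGF-beta 1 on microglia, from 13.4 to 10.2 FPKM (means of 3). The other lower genes, under 5 FPKM in both arm means and named after their values were seen, were Skil, Smad7 and Thbs1. Skil, related to Ski, fell from 2.37, 5.02 and 2.50 FPKM to a mean of 1.24 FPKM (log2 change -0.89, limma adjusted p = 0.0199). Smad7 fell from 2.45 to 1.62 FPKM (limma adjusted p = 0.00262) and Thbs1 from 3.06 to 2.355 FPKM (limma adjusted p = 0.0117). These calls were not followed one by one across the alternatives. The 2 that rose, named after their values were seen, were Itgb5, an integrin subunit, and Ski, a SMAD co-repressor, whose call was lost on the TPM scale, with no filter and in 4 of the 6 fits without 1 library (without WT replicate 1 or 3, or KO replicate 2 or 3; limma adjusted p 0.00817 to 0.0730 over all alternatives). Below the minimum of 1 FPKM, Bambi, a decoy receptor of the pathway, was also higher in the fit with no filter (0.366, 0.376 and 0.232 FPKM in the WT arm, 1.02, 0.920 and 1.02 FPKM in the KO arm, limma adjusted p = 0.00311).

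Of 20 receptor and SMAD genes 14 were tested, with 3 higher, 3 lower and 8 not past the threshold, 42.9% called and so near the 43.3% of all genes (median log2 change -0.03). Both receptors for TGF-beta rose. Tgfbr2, the type II receptor, had 5.62, 5.95 and 5.68 FPKM in the WT arm and 9.24, 8.70 and 8.33 FPKM in the KO arm (log2 change 0.53, SE 0.049, limma adjusted p = 0.000328). Tgfbr1, the type I receptor, had 6.16, 6.15 and 5.69 FPKM in the WT arm and 7.46 to 8.04 FPKM in the KO arm (log2 change 0.34, SE 0.050, limma adjusted p = 0.00246). In both genes all KO libraries lay above all WT libraries. Acvr2a, a type II receptor for activins, fell from 7.45 to 5.49 FPKM and Smad1, which carries BMP signals, from 5.29 to 4.09 FPKM. Smad2 and Smad3, the carriers of TGF-beta and activin signals, had 3.37 and 5.57 FPKM in the WT arm and 3.13 and 5.42 FPKM in the KO arm and did not pass the test (limma adjusted p = 0.456 and 0.629). Smad4, the partner that all these SMADs share, had 20.9, 21.2 and 22.4 FPKM in the WT arm and 19.6, 20.0 and 18.7 FPKM in the KO arm (log2 change -0.14, limma adjusted p = 0.0325). Its arms did not overlap, but the call was lost in 6 of 15 alternatives, among them no filter and the fits without WT replicate 2 or 3 or KO replicate 1 or 3 (limma adjusted p 0.0136 to 0.0912 over all alternatives). These 3 SMAD genes were named after their values were seen.

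The PDGF chains Pdgfb and Pdgfa were both lower with KO neutrophils. Pdgfb had 7.74, 7.54 and 7.13 FPKM in the WT arm and 2.70, 3.12 and 2.92 FPKM in the KO arm. Every WT library had more than every KO library, and the means of 7.47 ± 0.309 and 2.91 ± 0.210 FPKM (SD, n = 3 each) differed 2.57-fold. The log2 change was -1.12 (SE 0.059, limma adjusted p = 2.61e-05) and exact permutation (two-sided) gave the smallest possible p, 0.1. With a pseudocount of 0.1 in place of 1 the change was -1.33. Pdgfb is on chromosome 15, 79995874 to 80014977 (minus strand), with no overlapping exon of another gene.

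Pdgfa changed less. It had 6.57, 5.90 and 5.14 FPKM in the WT arm and 4.48, 4.24 and 3.64 FPKM in the KO arm. The arms did not overlap, but the replicates were less close than for the other expressed growth factors, with a coefficient of variation of 12.2% and 10.6%. The means of 5.87 ± 0.715 and 4.12 ± 0.436 FPKM (SD, n = 3 each) differed by -0.42 in log2 (SE 0.098, limma adjusted p = 0.0150), a 1.42-fold difference. Pdgfa is on chromosome 5, 138976014 to 138997370 (minus strand). Exons of the antisense gene 6330403L08Rik overlap it, and whether the authors counted by strand is not given in the sources used here, so reads of these genes may be mixed. Arms free of overlap were found for 5 of the 6 tested growth factors, against 55.8% of all genes tested.

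The share of Pdgfb in the sum of both chains was computed per library, since this ratio does not depend on the scale of a library. It does depend on the transcript lengths used, which are not given. Coding transcripts have 384 to 2944 bases for Pdgfb and 1287 to 2060 bases for Pdgfa. The Pdgfb share was 54.1%, 56.1% and 58.1% with WT and 37.6%, 42.4% and 44.5% with KO neutrophils. The share was lower in all 3 KO libraries than in any WT library, by 14.6 percentage points on average (exact two-sided permutation p = 0.1, the smallest possible). The sum itself was 13.3 ± 1.02 FPKM in the WT arm and 7.03 ± 0.422 FPKM in the KO arm (SD, n = 3 each).

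Of 7 further PDGF and VEGF ligand genes 2 were tested. Vegfa, the main angiogenic factor, had 31.0, 33.2 and 32.1 FPKM in the WT arm and 25.6, 27.6 and 28.6 FPKM in the KO arm (log2 change -0.23, limma adjusted p = 0.0100). Vegfb had 19.6, 19.0 and 17.8 FPKM in the WT arm and 21.1, 21.7 and 24.9 FPKM in the KO arm (log2 change 0.25, limma adjusted p = 0.0280). It was the less stable of the pair, since it lost its call on the TPM scale, with no filter, with the replicate number as a block or without WT replicate 2 or 3. Of 8 receptor genes only 3 were tested, and all 3 were called, in a fit that called 43.3% of all genes. Nrp1 and Nrp2 encode co-receptors for VEGF and semaphorins and moved in opposite directions. Nrp1 rose from 4.67, 4.23 and 4.55 FPKM to a mean of 9.84 FPKM (log2 change 0.98), whereas Nrp2 fell from 72.5, 70.4 and 70.5 FPKM to 36.0, 35.7 and 35.3 FPKM (log2 change -0.98). Flt1, a VEGF receptor, fell from 9.82 to 7.69 FPKM. The PDGF receptor Pdgfrb was at most 0.0324 FPKM, and Pdgfra, which marks oligodendrocyte precursors, at most 0.0188 FPKM in any library.

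Hbegf was the only EGF family ligand among the 3 with a measurable level. Its product, heparin-binding EGF-like growth factor, stimulates glia and epithelial cells. It had 3.16, 3.66 and 3.43 FPKM in the WT arm and 2.74, 2.63 and 2.73 FPKM in the KO arm. The arms did not overlap, although the lowest WT and the highest KO library were close. The means of 3.42 ± 0.251 and 2.70 ± 0.0614 FPKM (SD, n = 3 each) differed by -0.25 in log2 (SE 0.060, limma adjusted p = 0.0162), a 1.27-fold difference. Without KO replicate 2 the limma adjusted p was 0.0518, and with the replicate number as a block it was 0.0505. The call had the highest adjusted p of the 5. By the steps between low values, Hbegf rested on about 106 to 137 fragments per library. The gene is on chromosome 18, 36504927 to 36515805 (minus strand).

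Areg, the gene of amphiregulin, and Ereg, the gene of epiregulin, lie on chromosome 5 at 91139599 to 91148432 and 91074622 to 91093646. Both were listed at 0 in all 6 libraries. For Areg 3 fragments would give 0.126 to 0.157 FPKM and for Ereg 0.0371 to 0.0461 FPKM, for counting error only, so levels under these were not detectable.

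Other EGF family ligands were also at or near 0. None of 8 was tested, 5 were listed at 0 in all libraries and the highest was Nrg4 at 0.217 FPKM. The receptor Egfr was at most 0.00332 FPKM in any library. Of 14 receptor and shedding genes 7 were tested, with 4 lower, 1 higher and 2 not past the threshold, 71.4% called beside 43.3% of all genes (median log2 change -0.28). Rhbdf2 encodes the iRhom2 protein that brings ADAM17 to the cell surface, and it fell from 11.9, 11.1 and 11.2 FPKM to 7.03, 7.50 and 6.67 FPKM (log2 change -0.62, limma adjusted p = 0.000195). Adam17 itself had 33.1, 34.3 and 29.6 FPKM in the WT arm and 28.4, 27.8 and 23.4 FPKM in the KO arm (log2 change -0.28, SE 0.087, limma adjusted p = 0.0418). This call was lost without WT replicate 1 or 2, without KO replicate 2 or 3, with no filter and with no variance trend (limma adjusted p 0.00726 to 0.115 over all alternatives). Errfi1, a feedback inhibitor of EGFR kinases, fell from 10.6 to 5.73 FPKM and the metalloprotease gene Adam8 from 82.0 to 59.9 FPKM. Cd9, a tetraspanin that associates with the Hbegf precursor, rose from 131, 133 and 135 FPKM to 226, 231 and 230 FPKM (log2 change 0.78, limma adjusted p = 1.37e-06).

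Igf1 was the only growth factor of the 10 that rose. It had 6.98, 6.43 and 6.03 FPKM in the WT arm and 10.8, 10.8 and 11.5 FPKM in the KO arm. All KO libraries lay above all WT libraries, and the gap between the arms was wider than the range within either. The means of 6.48 ± 0.476 and 11.1 ± 0.381 FPKM (SD, n = 3 each) differed 1.71-fold, or by 0.69 in log2 (SE 0.057, 95% interval 0.55 to 0.83, limma adjusted p = 0.000195) and an exact two-sided permutation p of 0.1, the smallest possible. It stood at the 97.6th percentile of log2 changes among the genes tested. Igf1 is on chromosome 10, 87858265 to 87937042 (plus strand), and has 8 annotated transcripts, with coding transcripts of 510 to 7052 bases. A shift between transcripts of such different length would change FPKM as well, and this was not tested. The RefSeq window of 1 of its starts is printed because Igf1 is the one rise, and capitals mark the single match found, to the AP-1 letters, at positions -37 to -31 counted from 0 at the first transcribed base.

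Igf1, chr10:87860861-87861160: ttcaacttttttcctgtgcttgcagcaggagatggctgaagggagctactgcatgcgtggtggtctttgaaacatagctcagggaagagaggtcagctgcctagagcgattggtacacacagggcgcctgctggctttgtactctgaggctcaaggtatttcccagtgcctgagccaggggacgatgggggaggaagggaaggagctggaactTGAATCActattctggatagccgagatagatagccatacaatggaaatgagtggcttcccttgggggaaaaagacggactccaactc

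The Igf1 window had 52.3% GC. The AP-1 letters as searched allow any base in the middle, and this match has A there, so it is not shown to be an AP-1 site. The same wide letters are held by 7.81% of all windows, so the match is a description only.

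Of 20 further genes of the IGF axis 7 were tested, 2 higher, 4 lower and 1 not past the threshold, 85.7% called beside 43.3% of all genes (median log2 change -0.24). Igf1r, the receptor for IGF-1, had 4.49, 4.25 and 4.29 FPKM in the WT arm and 5.11, 5.47 and 5.36 FPKM in the KO arm (log2 change 0.24, SE 0.047, limma adjusted p = 0.00753). Igfbp4, a binding protein that holds IGFs, rose from 1.042 to 2.74 FPKM (log2 change 0.87, or 1.31 with a pseudocount of 0.1, limma adjusted p = 0.000678), and was named after its values were seen. Insr, the insulin receptor, fell from 8.11 to 5.75 FPKM, and Htra1, a secreted serine protease that can cleave IGF binding proteins, from 9.70 to 7.68 FPKM (limma adjusted p = 0.0155, and 0.0512 without KO replicate 2). Stc2, an inhibitor of the protease PAPP-A, fell from 11.3 to 9.41 FPKM, while Pappa, the gene of PAPP-A, was listed at 0 in all 6 libraries. Below the minimum of 1 FPKM, the related protease gene Pappa2 was lower in the fit with no filter (limma adjusted p = 0.0372). It was at a trace, at most 0.0806 FPKM in the WT arm and 0.0103 FPKM in the KO arm. Like Bambi, Pappa2 was named after its values were seen.

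Bdnf was at a trace. It lies on chromosome 2, 109674700 to 109727007 (plus strand), and exons of the antisense gene Gm45346 overlap it. It was listed at 0.0182 FPKM in WT replicate 1 and at 0 in the other 5 libraries, where 3 fragments would have given 0.0413 to 0.0514 FPKM. No difference was detectable (exact two-sided permutation p = 1). Of 23 other neurotrophic genes 11 were listed at 0 throughout and 2 were tested, neither past the threshold in limma at an adjusted p under 0.05 or an unadjusted p under 0.05. Manf, a factor of the endoplasmic reticulum that protects neurons, had means of 19.0 and 20.3 FPKM, and Cntf, ciliary neurotrophic factor, 1.57 and 1.34 FPKM. Below the minimum of 1 FPKM, and named after their values were seen, 2 genes of this list were lower in the fit with no filter. They are 2 of the 12 it tested, and that fit called 17.9% of all genes. Gdnf, glial cell line-derived neurotrophic factor, had 0.621, 0.511 and 0.4997 FPKM in the WT arm and 0.0476, 0.0679 and 0.0846 FPKM in the KO arm (limma adjusted p = 0.000794). Plat, the gene of tissue plasminogen activator, had 0.468, 0.429 and 0.387 FPKM in the WT arm and 0.160, 0.0751 and 0.0393 FPKM in the KO arm (limma adjusted p = 0.00505). In both the arms did not overlap. The BDNF receptor gene Ntrk2 was at most 0.00333 FPKM.

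The order of the 6 expressed growth factors differed between the arms. With WT neutrophils it was Gdf15, Tgfb1, Pdgfb, Igf1, Pdgfa and Hbegf, where only the neighbours Igf1 and Pdgfa overlapped between libraries. With KO neutrophils it was Tgfb1, Gdf15, Igf1, Pdgfa, Pdgfb and Hbegf, where only Pdgfb and Hbegf overlapped. Gdf15 stood at the 92.3rd percentile of tested genes by level with WT and at the 68.1st with KO neutrophils, Pdgfb at the 48.6th and the 20.4th, and Igf1 at the 43.8th and the 61.2nd.

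**Figure D2:**
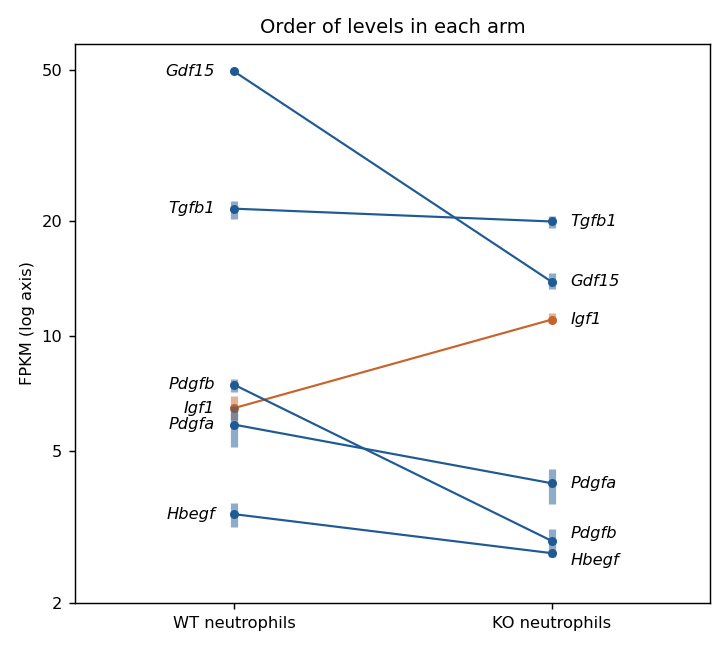
Mean FPKM (log axis) of the 6 expressed growth factors with WT and KO neutrophils; points are means of 3 libraries, thick bars run from the lowest to the highest library, blue lines fall and the orange line rises. Gdf15 goes from first place at 49.5 FPKM to second at 13.9 FPKM behind Tgfb1, and Igf1 passes Pdgfb to stand at 11.1 FPKM.

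The place of the 6 changes among all genes is shown by the plot of level against change. Gdf15 and Pdgfb lay in the lower tail, at the 0.658th and 1.71st percentile of log2 changes, and Tgfb1 at the 29.7th.

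**Figure D3:**
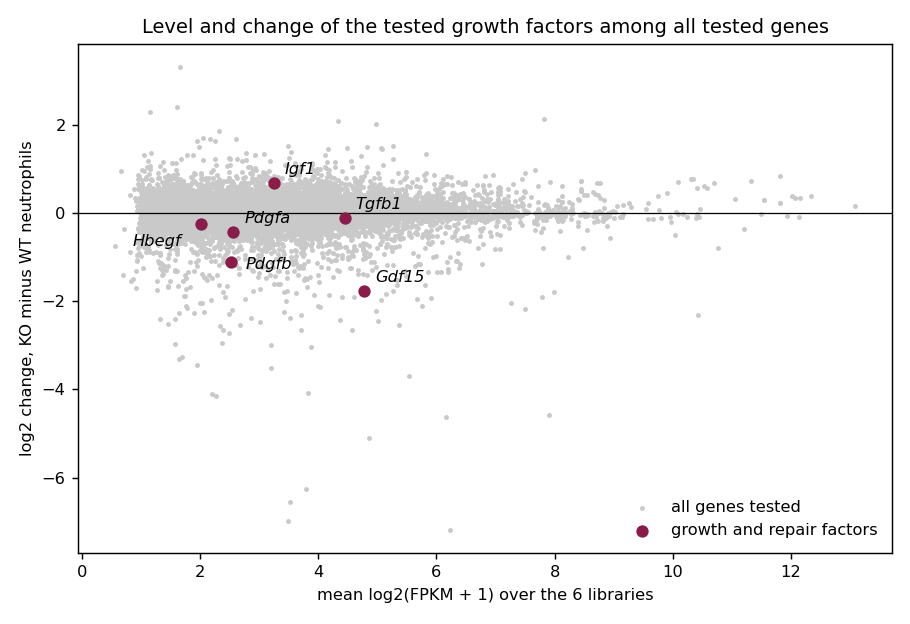
Each point is a gene of the 11395 tested, with its mean log2(FPKM + 1) over the 6 libraries on the horizontal axis and its log2 change (KO minus WT neutrophils) on the vertical axis; the 6 expressed growth factors are marked in purple. Gdf15 at -1.76 and Pdgfb at -1.12 lie below the main cloud and Igf1 at 0.69 near its upper edge.

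For Gdf15 and Pdgfb, the called genes with more than 2-fold change, the 3 most similar profiles were sought as the smallest Euclidean distance between mean-centred log2(FPKM + 1) values over the 6 libraries. For Gdf15 they were Cd14, the co-receptor for bacterial lipopolysaccharide (474 and 136 FPKM in the WT arm and KO neutrophils, distance 0.0993), Ptgs2os2, a non-coding gene (8.81 and 1.84 FPKM, distance 0.104), and Gm7993 (22.2 and 5.63 FPKM, distance 0.137). For Pdgfb they were Cfp, which encodes the complement regulator properdin (42.8 and 19.4 FPKM, distance 0.0529), Chpf, of chondroitin synthesis (8.13 and 3.05 FPKM, distance 0.107), and Nr4a1, an orphan nuclear receptor (19.1 and 8.06 FPKM, distance 0.122). With 2 arms of 3 libraries, such likeness mostly says that the genes changed by a similar amount.

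The changes of the 6 growth factors were followed across the alternative settings. Gdf15 (log2 change -1.86 to -1.74), Pdgfb (-1.33 to -1.08), Pdgfa (-0.52 to -0.35) and Igf1 (0.65 to 0.76) stayed past the threshold in every alternative that tested them.

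**Figure D4:**
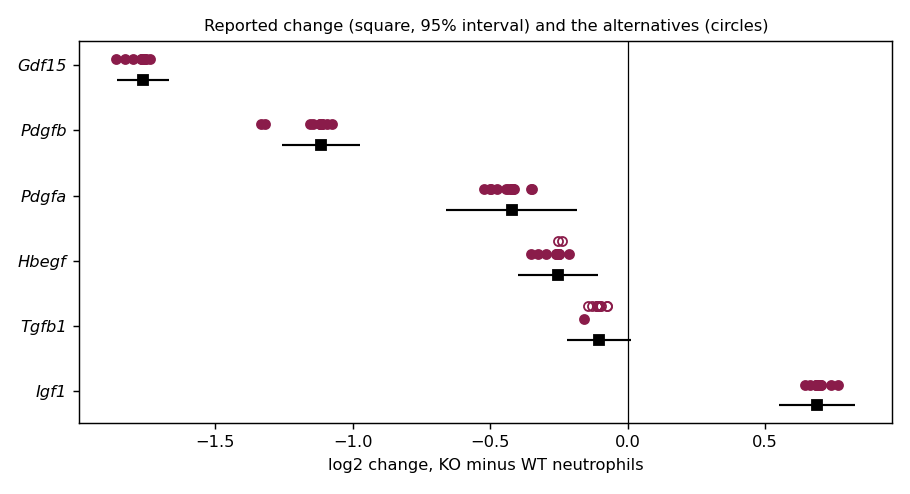
Log2 change (KO minus WT neutrophils) of each expressed growth factor as reported (black square with its 95% interval) and under each alternative setting (circles, filled where the adjusted p was under 0.05, open and raised where it was not). No circle crosses 0; Hbegf has 2 open circles, and Tgfb1 has 1 filled circle, the TPM scale at -0.16.

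Among 18 other growth factor genes 7 were tested, with 2 lower, 1 higher and 4 not past the threshold, 42.9% called and so near the 43.3% of all genes (median log2 change -0.07). Spp1, the gene of osteopontin, a secreted matrix protein, was far more abundant than any of the 10 and fell from 2657, 2726 and 2680 FPKM to 2110, 2062 and 2126 FPKM (log2 change -0.36, limma adjusted p = 2.34e-05). The other 2 called genes were named after their values were seen. Hgf, hepatocyte growth factor, fell from 2.23 to 0.757 FPKM (log2 change -0.88, or -1.44 with a pseudocount of 0.1, limma adjusted p = 8.11e-05) and Fgf13 rose from 1.43 to 2.26 FPKM (log2 change 0.42). Despite its name, Fgf13 does not encode a secreted ligand. Grn, the gene of progranulin, had 146 and 138 FPKM and did not pass the test (limma adjusted p = 0.364). Over all 166 genes of these lists 62 were listed at 0 in all libraries and 53 were tested, of which 11 were higher and 23 lower, 64.2% of those tested beside 43.3% of all genes. The median log2 change of the 53 was -0.08.

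**Figure D5:**
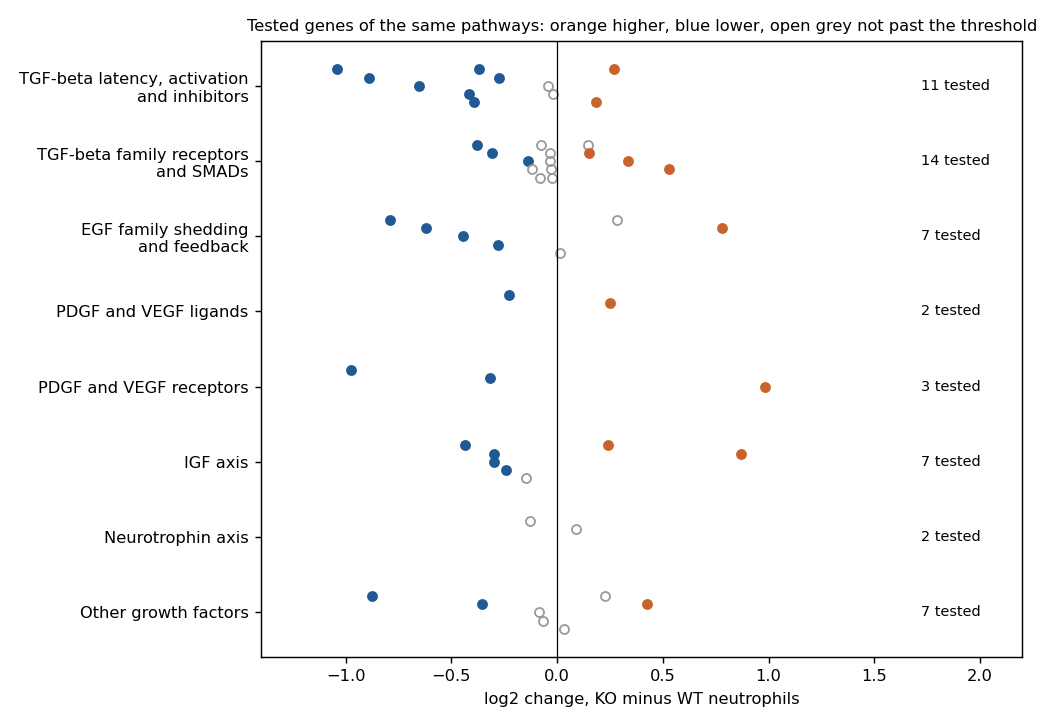
Log2 change (KO minus WT neutrophils) of the 53 tested genes of the pathway lists, one row per list with its number tested at the right; orange filled points were called higher, blue filled points called lower, and grey open points did not pass the threshold (points are spread vertically to be seen). The latency and inhibitor row holds 7 blue and 2 orange points, and the Nrp1 and Nrp2 points stand at opposite ends of the receptor row.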

How the data were processed

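RNA-seq values of 6 libraries were used, 3 per neutrophil genotype, grouped by their titles. FPKM is the deposited unit, in 1 table from the authors with 1 column per library. Per the labels, the submitters' processing notes name fastp 0.17.1, HISAT2 2.1.0, DESeq2 1.18.1 and R 3.4.3. The quantification program, genome build and annotation are not given in the sources used here. Library kits and sequencers differ between the labels and the methods. Counts were not used, so calls can differ from a count test.

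Symbols and positions came from GENCODE M21 (GRCm38), which may not be the authors' annotation, and 55154 of 55335 identifiers (99.7%) matched. Promoter windows came from RefSeq (GRCm38.p6). In their stretch after the start, the first bases were found in a GENCODE transcript for each window printed.

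The test was limma 3.58.1 (R 4.3.3; lmFit, eBayes with trend) on log2(FPKM + 1) for KO minus WT, without covariates. The 11395 genes whose mean reached 1 FPKM entered, with Benjamini-Hochberg adjustment over them and a threshold of 0.05. This scale understates changes of low genes. The fit was tested on simulated data. Single genes also got an exact two-sided permutation test of means, whose smallest p is 0.1. A detection floor of 3 fragments used the step between low values of genes with 1 transcript and the shortest coding transcript, and covers counting error only.

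Members, lists and rules were chosen with earlier results of these data known. All 10 members were named. Of each list, up to 4 called genes with the largest change and at least 5 FPKM in the higher arm were named, along with Tgfbr1, Tgfbr2, Egfr, Igf1r, Pdgfrb, Ntrk2, Furin and Adam17. Of each marker list up to 3 were named by level; others named there were chosen after their values were seen. Alternatives were a pseudocount of 0.1, no filter, a mean of at least 5 FPKM, the TPM scale, median centring, quantile normalization, no trend, array weights, the replicate block and leaving out each library.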

Additional observations from a re-analysis of the deposited data

How the results depend on the processing

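Leaving out the 4 growth factors under 1 FPKM and the lists with no tested gene, 741 values were recomputed under an alternative and 704 had the same direction and call as reported (counts within 1.5 times), 26 lost a call (Adam17, Ski, Smad4, Vegfb, Htra1 and Hbegf), 1 gained one, 9 counts moved further and 1 changed sign, the uncalled Cntf at 0.0036 without WT replicate 2. The genes called numbered 3763 to 4931 against 4930, and 4082 to 4223 across the 6 fits without 1 library. The growth factors called went from 5 to 3 under a minimum mean of 5 FPKM, where only 4 were tested, and numbered 4 to 5 across the fits without 1 library. Hbegf had a log2 change of -0.25 with a limma adjusted p of 0.0505 under the replicate block, and -0.30 to -0.21 across the fits without 1 library, of which the one without KO replicate 2 lost the call. Its adjusted p ranged from 0.00882 to 0.0518, for a cause not tested. Tgfb1 passed on the TPM scale (log2 change -0.16, limma adjusted p = 0.0458, 0.0458 to 0.302 over its alternatives), which lowers all KO values relative to WT.

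Calls in the lists moved as follows. Under a minimum mean of 5 FPKM the IGF axis had 3 of 3 tested and the other growth factors 1 of 4 tested, beside 51.0% of all genes. With no filter the neurotrophic list had 2 of 12 tested, Gdnf and Plat, and the PDGF and VEGF ligands 1 of 4 tested, beside 17.9% of all genes. The PDGF and VEGF ligands also had 1 called gene on the TPM scale and under the replicate block, and 1 to 2 across the fits without 1 library, where Vegfb lost its call. Replicate numbers did not pair the libraries (correlations of deviations between same-numbered libraries -0.08, -0.05 and -0.01). With the replicate block 4212 genes and 4 growth factors were called, no other growth factor changed its side, and Vegfb and Smad4 lost their calls (limma adjusted p = 0.0757 and 0.0861). Depth limits Inhba and Bdnf, which were at a trace, and Areg and Ereg, which were listed at 0, and 3 libraries per arm limit the precision of the rest.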
